A study of Mus musculus with 6 samples.

Results

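The genes described here encode the proteins with which a cell detects, signals and mends damaged DNA: checkpoint kinases and their activators, and factors of homologous recombination, of the Fanconi anemia pathway, of end joining, and of base lesion, mismatch and fork repair. They were taken by name from a table of 32285 genes, from a list of 30 names, and 29 of the names were rows of the table. The remaining name, Claspn, was not found under that spelling. Claspin is listed as Clspn, its mouse symbol, and its values are given beside the 29 without being counted among them. All 29 passed the filter on low counts, so none is missing from the tests.

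A double-strand break is sensed by the MRN complex, which activates the kinase ATM, while single-stranded DNA at stalled forks activates the kinase ATR. ATM acts through CHEK2 and p53, ATR through CHEK1, and both halt the cell cycle while the lesion is mended by recombination or by end joining. Many of these genes are E2F targets, transcribed most in late G1 and S phase, so that their RNA is abundant in dividing cells such as cultured spermatogonia. The study targeted Cdkn1c, which encodes p57, an inhibitor of the cyclin-dependent kinases that lead cells into S phase.

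RNA was measured in 6 libraries of GS cells, germline stem cell cultures grown from mouse testis that keep properties of spermatogonial stem cells. The 3 control libraries came from cells whose genotype is given as p57 flox/flox, and the 3 p57 KO libraries from cells given as p57 flox/flox-Cre, in which adenovirus delivered Cre recombinase. Both groups carried the floxed alleles, RNA was taken 2 days after infection, and the sources used here do not say whether the controls received a virus without Cre. The mice are given as 3 days old in one label and 10 days old in the design text, and as BDF1 in one and C57BL/6 and 129 in the other. Whether replicates were grown as separate cultures is not stated, so the p-values rest on library-to-library spread that could be purely technical.

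Library totals were 15662833 to 17893671 counts and did not separate the groups. Cdkn1c was lower in all 3 p57 KO libraries, with a log2 ratio of p57 KO to control, called log2FC from here on, of -1.22 (SE 0.09, edgeR adjusted p = 4.07e-09). Its RNA was reduced to 42.9% of control and not lost, with 138 to 155 counts in each p57 KO library, and the deleted part of the gene is not stated. The germ cell label was checked on 20 spermatogonia markers, whose summed level was 5355 to 5440 CPM in control and 4677 to 4918 CPM in p57 KO. CPM are counts scaled to a common library size, per 1000000, after correction by the TMM method. Of these markers 13 fell and 1 rose, with Id4, Zbtb16 and Sall4 at log2FC values of -0.54, -0.34 and -0.31. The 28 fibroblast and feeder cell markers had log2FC values above 0 throughout (median 1.37). Of them 6 rose, and their summed level went from 1190 to 1513 CPM in control to 1845 to 3591 CPM in p57 KO, highest in p57 KO replicate 3. Sertoli, Leydig, macrophage and endothelial markers summed to 34.8 to 40.8, 3.00 to 3.94, 13.6 to 22.9 and 94.0 to 107 CPM over the 6 libraries. Of the macrophage markers 3 of 8 were tested and all 3 rose, while 5 of 8 stayed under 1 CPM in every library. Hsd3b1, which marks Leydig cells, had no count in any library. The 10 meiotic spermatocyte markers summed to 599.4 to 611.2 CPM in control and 578.1 to 581.5 CPM in p57 KO. Of the 9 tested, 1 fell (Sycp1, log2FC -0.16, edgeR adjusted p = 0.00113) and 0 rose. In bulk RNA, fewer cells of a type and less RNA per cell cannot be told apart, and the part of the changed marker levels in the results below was not tested beyond a fit with the fibroblast markers as a covariate.

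RNA of the repair and checkpoint genes was present in every library at moderate to high levels, from 299 counts of Lig4 to 12201 counts of Parp1. Scaled per kilobase of annotated exon, the highest control levels were those of Parp1, the enzyme that marks single-strand breaks with poly(ADP-ribose), at 131.8 ± 0.404 CPM per kb (SD, n = 3), and of Msh6, a mismatch sensor, at 101.8 ± 0.737. Xrcc5, a subunit of the Ku heterodimer that caps broken ends, followed at 31.2 ± 1.12 CPM per kb. At the low end were Palb2, which joins BRCA1 to BRCA2, at 6.85 ± 0.129, the recombination gene Xrcc2 at 5.74 ± 0.337 and Lig4, the ligase of end joining, at 4.09 ± 0.426 CPM per kb. Neighbours in the middle of this order did not differ beyond their spread: Rad51c, Fancd2 and Chek1 had means of 11.3, 11.2 and 11.2 CPM per kb in control. The exon length used joins all annotated exons of a gene, whichever transcripts the cells make, so the order depends on the annotation. It was 2555 bases for Xrcc5 and 4476 for its Ku partner Xrcc6. Without scaling by length, Xrcc6 was the higher of these, with control means of 108 and 79.7 CPM. The summed level of the 29 genes was 4077 to 4135 CPM in control and 4060 to 4166 CPM in p57 KO.

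**Figure D1:**
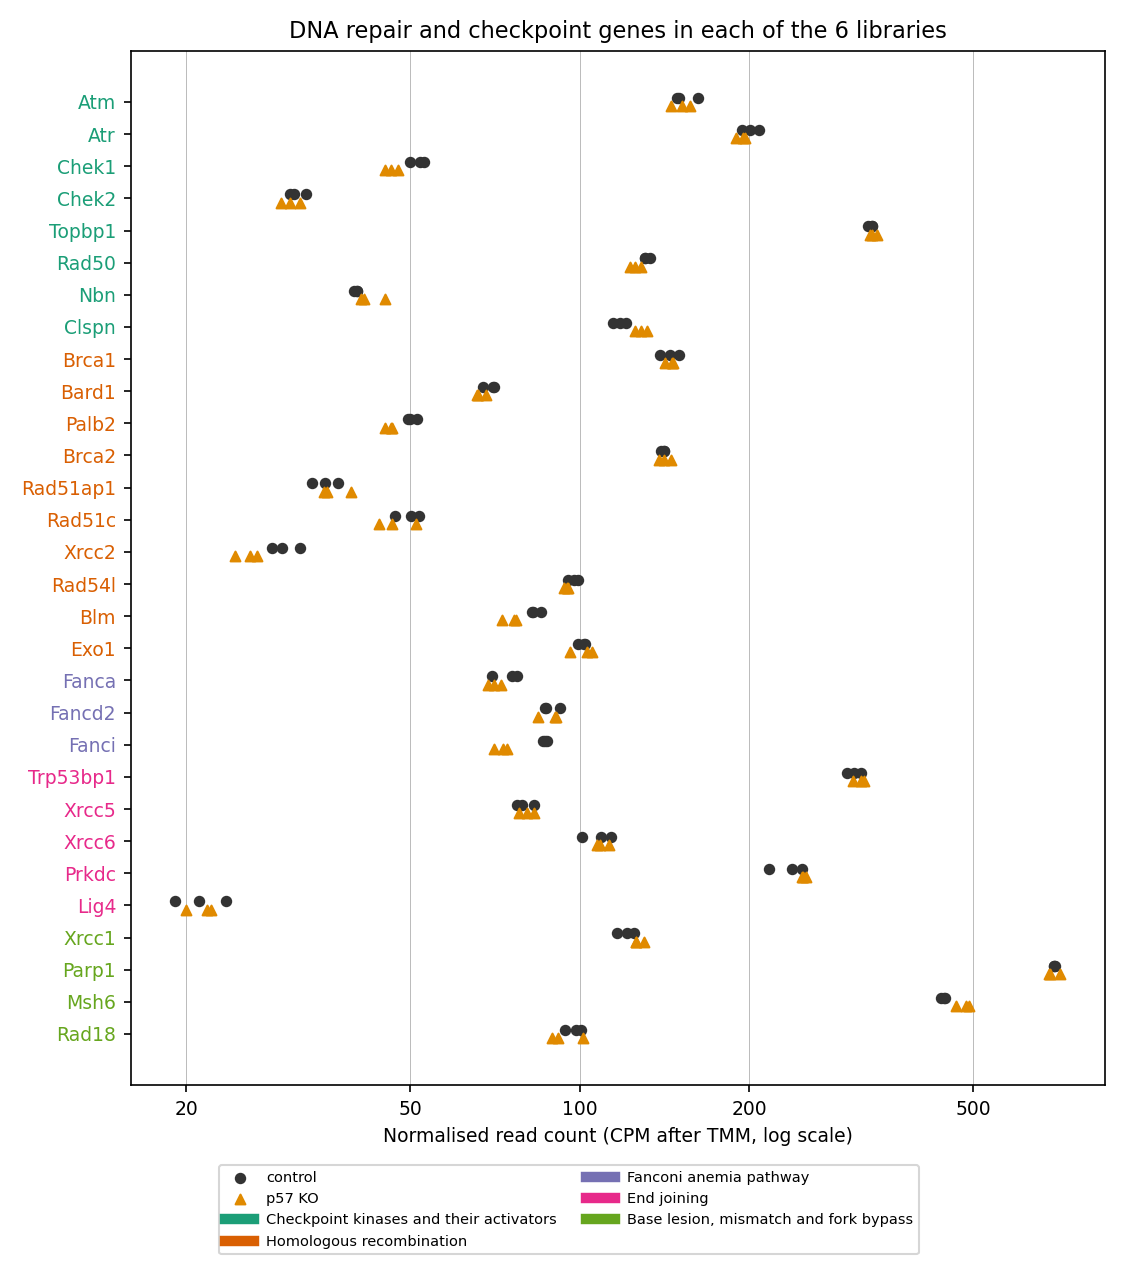
Normalised read count (CPM after TMM scaling, log axis) of the 29 repair and checkpoint genes and Clspn in each library, with circles for the 3 control and triangles for the 3 p57 KO libraries and gene names coloured by role. Circles and triangles lie close together for most genes, while those of the called genes Fanci, Xrcc2, Blm, Chek1 and Msh6 and of Clspn are apart. The groups also do not overlap for Palb2, Rad50, Rad54l, Nbn, Prkdc and Xrcc1, which were not called.

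These genes differed little between p57 KO and control. Of the 29, 4 fell in p57 KO (Fanci, Xrcc2, Chek1 and Blm) and 1 rose (Msh6), at an edgeR adjusted p under 0.05 over all 14814 tested genes. By the same rule 11.6% of all tested genes fell and 11.6% rose, 23.3% together, against 17.2% of the 29. Among the 7889 tested genes within the level range of the 29, 19.3% fell and 9.9% rose. The share of repair and checkpoint genes called was thus no higher than that of all tested genes. The mean level in p57 KO was 83.6% (Fanci) to 109% (Msh6) of control, and 66.5% of all tested genes had a log2FC inside the range of the 29. Their median log2FC was -0.0076, against -0.0019 for all tested genes, and 17 of the 29 lay below 0, as did 50.4% of all tested genes. For the 24 genes that were not called, the 95% intervals of the fold change reached no lower than 85.2% of control (Palb2) and no higher than 114% (Nbn).

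**Figure D2:**
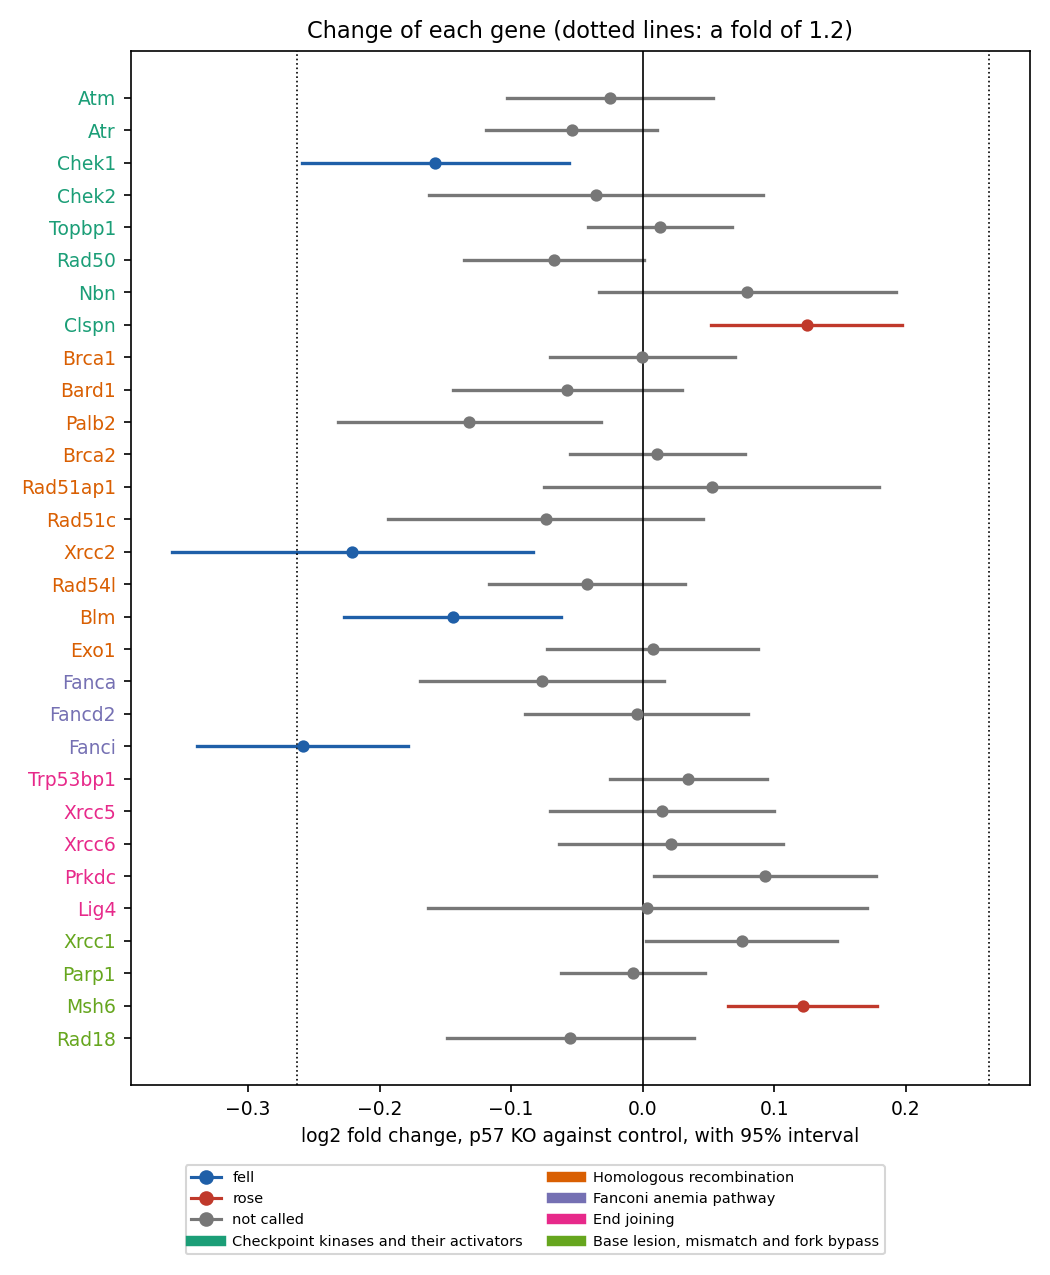
Log2FC of each gene, p57 KO against control, with its 95% interval from the edgeR fit, coloured blue for genes that fell, red for genes that rose and grey for those not called. Dotted lines mark a fold of 1.2, and each point lies between them, with the value of Fanci (-0.26) next to the lower line.

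Among the checkpoint kinases, the RNA of Chek1 alone was called. Chek1, the effector kinase of ATR that restrains entry into mitosis while DNA is being copied, is on chromosome 9, minus strand, from 36708482 to 36727065 (mm10, GENCODE M21). It had 52.2, 50.02 and 52.9 CPM in the control libraries and 46.3, 47.6 and 45.1 CPM in the p57 KO libraries. Every p57 KO library was below every control library. Its log2FC came to -0.16 (SE 0.05, edgeR adjusted p = 0.0224), and the adjusted p was 0.112 in DESeq2 and 0.0706, 0.0934 and 0.0821 on leaving out control replicate 1, control replicate 3 or p57 KO replicate 3. Atm, Atr and Chek2 had log2FC values of -0.02, -0.05 and -0.04, with edgeR adjusted p of 0.684, 0.227 and 0.723. Atm, the kinase called to double-strand breaks, had 162, 149 and 151 CPM in control and 157, 145 and 152 CPM in p57 KO, so the groups overlapped.

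Activators of the kinases gave a mixed picture. Clspn, the adaptor through which ATR reaches CHEK1, had 121, 118 and 115 CPM in control and 125, 132 and 129 CPM in p57 KO. It was higher in every p57 KO library, the opposite of Chek1, and rose with a log2FC of 0.12 (SE 0.03, edgeR adjusted p = 0.0121). The adjusted p was 0.0661 in DESeq2, 0.079 on leaving out control replicate 3 and 0.073 on leaving out p57 KO replicate 2. Topbp1, which switches on ATR, had 325, 331 and 331 CPM in control and 338, 331 and 328 CPM in p57 KO, with overlapping groups. Of the MRN subunits, Rad50 was lower in every p57 KO library and Nbn, the subunit that binds ATM, higher in every one. Neither was called: their log2FC values were -0.07 (edgeR adjusted p = 0.148) and 0.08 (adjusted p = 0.316).

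In homologous recombination 2 of 10 genes fell. Xrcc2, whose product helps broken DNA pair with its intact copy, lies on chromosome 5 from 25689812 to 25705825. It had 31.8, 29.6 and 28.4 CPM in control and 26.7, 26.0 and 24.5 CPM in p57 KO, lower in each p57 KO library than in any control. Its log2FC was -0.22 (SE 0.07, edgeR adjusted p = 0.0185), and that adjusted p became 0.11 on leaving out control replicate 1, 0.0833 on leaving out p57 KO replicate 3 and 0.0961 in DESeq2. Blm, the helicase that dissolves recombination intermediates, lies on chromosome 7 from 80454733 to 80535119. It had 82.8, 82.2 and 85.5 CPM in control and 73.0, 77.3 and 76.3 CPM in p57 KO, again without overlap. Its log2FC came to -0.14 (SE 0.04, edgeR adjusted p = 0.0106), and the adjusted p was 0.0586 without control replicate 3 and 0.055 in DESeq2.

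The central genes of recombination did not pass the test. Brca1 had 145, 150 and 139 CPM in control and 146, 146 and 142 CPM in p57 KO, a log2FC of -0.00041 with a 95% interval from -0.07 to 0.07. Its partner Bard1 had -0.06 (edgeR adjusted p = 0.351). Brca2, a central mediator of recombination, had 139, 141 and 141 CPM in control and 139, 145 and 141 CPM in p57 KO, with a log2FC of 0.01. Palb2 lay just outside the threshold. It had 50.05, 51.4 and 49.5 CPM in control and 46.3, 45.0 and 46.5 CPM in p57 KO, lower throughout, with a log2FC of -0.13 (SE 0.05, edgeR adjusted p = 0.0512). With library totals in place of TMM its adjusted p was 0.0445. The helper genes Rad51ap1, Rad51c and Rad54l had log2FC values of 0.05, -0.07 and -0.04, and the nuclease gene Exo1 had 0.0076.

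Fanci showed the deepest fall of the 29. Its protein forms a clamp with FANCD2 that closes on DNA at interstrand crosslinks and is switched on by ubiquitin. Fanci lies on the plus strand of chromosome 7 from 79391929 to 79450264. It had 86.8, 87.6 and 86.2 CPM in control and 74.2, 73.2 and 70.6 CPM in p57 KO. The control values lay close together (SD 0.735 CPM) and all p57 KO values lay below them. Its log2FC came to -0.26 (SE 0.04, edgeR adjusted p = 5.29e-05), and the call was kept in DESeq2 and in each fit that left out 1 library. Fancd2, the partner in the clamp, had 86.8, 92.3 and 87.2 CPM in control and 84.3, 90.3 and 90.9 CPM in p57 KO, with a log2FC of -0.0045 (95% interval -0.09 to 0.08). Fanca, part of the complex that attaches the ubiquitin, had -0.08 (edgeR adjusted p = 0.229).

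Fanci shares 921 exonic bases with Polg, the gene of the mitochondrial DNA polymerase, on the other strand. Polg fell by a like amount, from 188 ± 4.63 to 162 ± 4.15 CPM (SD, n = 3 per group; log2FC -0.22, SE 0.03, edgeR adjusted p = 3.66e-05). How strand was treated in the counting is not stated, so reads of the shared bases cannot be assigned to either gene with certainty. In all, 9 of the 29 genes share exonic bases with a gene on the other strand, 7 of them with a protein-coding one. Msh6 shares 34 bases with Fbxo11, which fell with a log2FC of -0.11 (edgeR adjusted p = 0.0347), the opposite direction to Msh6. Trp53bp1 shares 2130 bases with Tubgcp4, which fell with -0.13 (adjusted p = 0.0134).

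Chromosome 7, which holds Cdkn1c, also holds Fanci, Blm, Palb2 and Xrcc1. Its 1137 tested genes had a median log2FC of -0.06, the lowest of the 20 chromosomes examined, and 21.1% of them fell, against 11.6% of all tested genes. The 4 repair genes there had log2FC values of -0.26, -0.14, -0.13 and 0.08 in the order given. Fanci and Blm are 1004469 bases apart. Of the 45 other tested genes in the stretch that spans both and 1000000 bases on either side, 14 fell and 5 rose, with a median of -0.10. Fanci and Blm were singled out because they were called, so their falls are not weighed against these medians. The part of the chromosome-wide shift in the falls of Fanci and Blm was not tested. Among the 25 repair genes on other chromosomes, 2 fell (Chek1 and Xrcc2), 1 rose (Msh6) and the median log2FC was -0.0045.

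All 5 end joining genes had fold changes slightly above 0 and none was called in edgeR, with unadjusted p of 0.0333 for Prkdc and 0.242 to 0.966 for the others. Prkdc, the catalytic subunit of DNA-PK that Ku recruits to broken ends, had 248, 217 and 239 CPM in control and 253, 249 and 249 CPM in p57 KO. Every p57 KO library was above the highest control, by little. Its log2FC came to 0.09 (SE 0.04, edgeR adjusted p = 0.105), and the gene was called without control replicate 1 (0.13, adjusted p = 0.0179) and with no filter on low counts (0.09, adjusted p = 0.0206). On leaving out control replicate 2, its lowest library, the log2FC was 0.04 (adjusted p = 0.443). Trp53bp1, whose protein 53BP1 steers breaks towards end joining, had 0.03 (edgeR adjusted p = 0.419), and the Ku genes Xrcc5 and Xrcc6 had 0.01 and 0.02. Lig4 had 0.0034 with the widest interval of the 29, from -0.16 to 0.17. Lig4 was below 0 with library totals (-0.00053) and in DESeq2 (-0.00099), and Xrcc6, Xrcc5 and Lig4 changed sign in some fits that left out 1 library.

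Msh6 was the 1 member that rose. Its protein recognises mispaired bases behind the replication fork. The gene lies on the plus strand of chromosome 17 from 87975062 to 87990892. It had 444, 445 and 439 CPM in control and 493, 485 and 467 CPM in p57 KO, and the lowest p57 KO value was above the highest control. Its log2FC came to 0.12 (SE 0.03, edgeR adjusted p = 0.00243). The call was kept in every fit run except the test against a fold of 1.2. With the fibroblast markers as a covariate the log2FC was 0.18 (edgeR adjusted p = 0.0259). That covariate overlaps with group, as described below, so the kept call in that fit is not read as support. Parp1 had 700, 697 and 697 CPM in control and 715, 684 and 683 CPM in p57 KO, a log2FC of -0.0076. Xrcc1, the scaffold that PARP1 calls to single-strand breaks, had 0.08 (edgeR adjusted p = 0.126) and was higher in each p57 KO library than in any control. Rad18, the ubiquitin ligase that marks PCNA for bypass of lesions, had -0.06 with overlapping groups.

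Counted over the 29, the groups did not overlap for 11 genes, 7 lower and 4 higher in p57 KO. Of all tested genes 39.2% had groups that did not overlap, 19.7% lower and 19.5% higher. The mean log2 level of the 29 genes, relative to the control mean, was -0.01, -0.03 and -0.05 in p57 KO replicates 1, 2 and 3. Those replicates are not ordered, and replicate 3 is also the library with the highest fibroblast marker level. With the fibroblast markers as a covariate no repair gene fell, 1 rose (Msh6) and the median log2FC was 0.03. In that fit 395 of all 14814 tested genes were called, or 2.67%. Fanci then had -0.21 (edgeR adjusted p = 0.155), Blm -0.18 (0.257), Xrcc2 -0.10 (0.806), Chek1 -0.09 (0.762) and Clspn 0.09 (0.581). The summed level of the fibroblast markers was higher in every p57 KO library than in any control, so the covariate overlaps with group. The fit thus cannot tell the effect of group from that of marker content, and neither a lost nor a kept call is read as either.

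**Figure D3:**
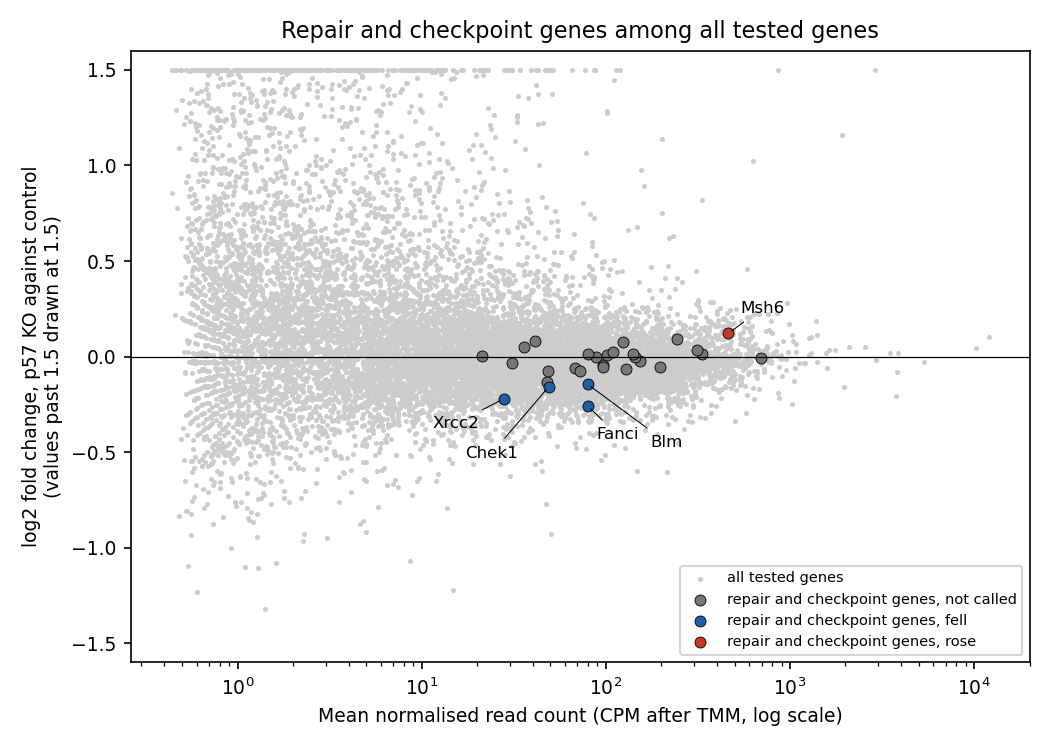
Log2FC, p57 KO against control, of all 14814 tested genes (small grey points, values past 1.5 drawn at 1.5) against mean CPM on a log axis, with the 29 repair and checkpoint genes as large points. They lie in the dense middle of the cloud, with the called genes between -0.26 (Fanci) and 0.12 (Msh6).

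Ratios between genes whose products work together were set side by side as a description, for pairs chosen after the values were seen that include the called genes Fanci and Chek1. The ratio of Fanci to Fancd2 was 1, 0.95 and 0.988 in control and 0.881, 0.81 and 0.776 in p57 KO, lower in each p57 KO library. The ratio of Chek1 to Clspn was 0.431, 0.424 and 0.461 in control and 0.369, 0.361 and 0.351 in p57 KO.

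Rad50 to Nbn and Brca2 to Palb2 were the other ratios whose groups did not overlap, with log2 differences of -0.15 and 0.14. The groups overlapped for Xrcc5 to Xrcc6, Brca1 to Bard1, Xrcc2 to Rad51c and Rad50 to Mre11a. For each of the 4 ratios without overlap an exact two-sided permutation test gave p = 0.1, the minimum for groups of 3, and 0.2 after adjustment over the 8 ratios. Because the pairs were chosen with the values known, these p-values are a description only. The share of other gene pairs without overlap was not computed, and among single tested genes it was 39.2%. A ratio within a library shows unequal change and does not depend on the scaling.

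**Figure D4:**
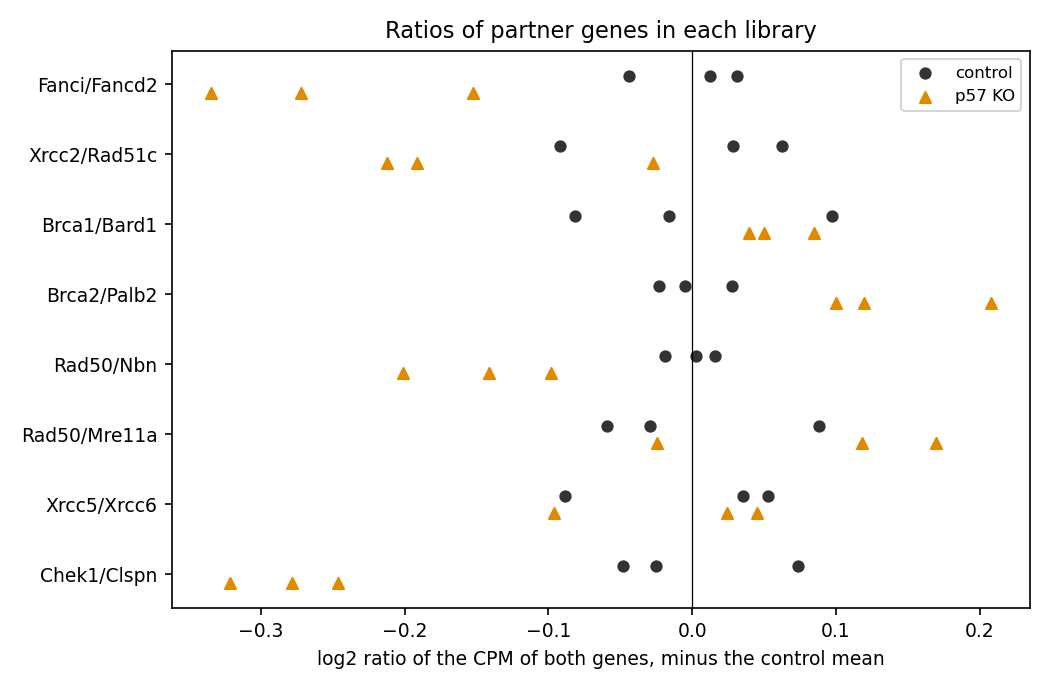
Log2 ratio of the CPM of 2 genes of one complex or signalling pair in each library, minus the mean of the control libraries, for 8 pairs (circles control, triangles p57 KO). Triangles lie apart from circles for Fanci/Fancd2, Brca2/Palb2, Rad50/Nbn and Chek1/Clspn.

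Promoters were read to see what the genes that changed share in sequence with each other and with the rest. RefSeq promoter windows (GRCm38.p6, the build of mm10) of 300 bases, from 250 before to 50 after the start, were found for 23 of the 29 genes. E2F sites were searched on both strands with 2 sets of letters, and the picture depends on the set. The first set, TTTCCCGC, TTTCGCGC, TTTGCCGC or TTTGGCGC, was found in 7 of the 23 windows (30.4%), against 2.32% of all 27025 windows. It was in 0 of 3 windows of genes that fell (Fanci, Chek1 and Blm), in that of Msh6, in that of Clspn and in 6 of 19 windows of genes that were not called. The second set is the same letters without the first T of each, 7 in place of 8, so that every match of the first set is also one of the second, and was chosen after the first result and the windows had been read. It was found in 14 of the 23 windows (60.9%), against 9.69% of all windows, among them the 3 windows of genes that fell, those of Msh6 and Clspn, and 10 of 19 of genes not called. Since the windows of genes that fell went from 0 of 3 to 3 of 3 with 1 letter less, nothing is read from either set about the direction of change. The Chek1 window also ends with its match of the second set, so a match of 8 letters there would run past its end. The CHR letters TTTGAA, a repressor element of late cell cycle genes, were in 1 of 23 windows against 18.1% of all, and a single p53 decamer, which a p53 response element holds as a pair, in 1 of 23 against 8.37%. The Sp1 letters GGGCGG were in 14 of 23 windows (60.9%) against 35.9% of all, and the letters CCAAT in 12 of 23 (52.2%) against 37.9%. A higher share than over all windows was thus not particular to the E2F letters. The windows compared were not matched for base content. A match is a description of letters and not of binding. The windows of the called genes with an entry and of Clspn are given 5′ to 3′ on the gene's strand, with the matches of the second E2F set in capitals. They are chr7:79392088-79392387 on the plus strand for Fanci, chr9:36726609-36726908 on the minus strand for Chek1, chr7:80534949-80535248 on the minus strand for Blm, chr17:87974800-87975099 on the plus strand for Msh6 and chr4:126556730-126557029 on the plus strand for Clspn. Xrcc2 has no entry.
Fanci: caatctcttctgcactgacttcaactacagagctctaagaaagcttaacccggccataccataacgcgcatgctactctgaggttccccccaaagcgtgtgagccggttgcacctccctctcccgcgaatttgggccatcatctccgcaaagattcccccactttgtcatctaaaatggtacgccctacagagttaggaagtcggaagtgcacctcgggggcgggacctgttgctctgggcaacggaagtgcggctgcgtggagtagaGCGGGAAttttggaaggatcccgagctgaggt
Chek1: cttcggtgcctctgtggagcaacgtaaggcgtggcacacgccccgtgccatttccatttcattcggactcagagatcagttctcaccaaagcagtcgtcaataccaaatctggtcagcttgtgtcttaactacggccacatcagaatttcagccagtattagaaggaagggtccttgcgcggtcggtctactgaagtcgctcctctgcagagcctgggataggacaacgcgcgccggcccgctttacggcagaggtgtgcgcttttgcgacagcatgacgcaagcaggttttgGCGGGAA
Blm: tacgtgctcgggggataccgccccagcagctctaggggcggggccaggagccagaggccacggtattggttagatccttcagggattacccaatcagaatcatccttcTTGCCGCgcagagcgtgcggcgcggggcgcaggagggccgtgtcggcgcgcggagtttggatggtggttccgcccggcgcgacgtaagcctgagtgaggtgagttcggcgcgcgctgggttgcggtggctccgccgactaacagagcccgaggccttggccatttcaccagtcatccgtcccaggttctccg
Msh6: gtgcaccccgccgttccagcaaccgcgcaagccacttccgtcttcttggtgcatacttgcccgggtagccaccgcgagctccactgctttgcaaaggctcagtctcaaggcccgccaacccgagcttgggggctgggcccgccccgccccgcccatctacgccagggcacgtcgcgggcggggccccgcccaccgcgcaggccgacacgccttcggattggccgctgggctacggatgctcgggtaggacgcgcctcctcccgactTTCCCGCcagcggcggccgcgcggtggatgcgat
Clspn: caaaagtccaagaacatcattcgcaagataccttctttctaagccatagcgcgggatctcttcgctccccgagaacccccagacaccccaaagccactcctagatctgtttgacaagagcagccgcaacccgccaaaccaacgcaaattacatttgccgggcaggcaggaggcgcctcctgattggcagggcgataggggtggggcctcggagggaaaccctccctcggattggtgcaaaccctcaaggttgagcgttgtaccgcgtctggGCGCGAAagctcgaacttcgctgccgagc

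In Chek1, Fanci, Msh6 and Clspn the capitals begin 43, 18, 16 and 21 bases after the RefSeq start, and in Blm they begin 142 bases before it. In Chek1, Fanci, Blm and Clspn that start is not the outermost one of the GENCODE gene. It lies 407 bases downstream of it in Chek1, 409 in Fanci, 121 in Blm and 45 in Clspn. The outermost GENCODE starts of Chek1 and Fanci are therefore not covered by their windows. Those of Blm and Clspn lie inside their windows, with fewer bases before them than before the RefSeq start. Chek1 and Fanci, which fell, hold the same 7 letters, and Msh6, which rose, holds those letters on the other strand.

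Several repair genes share a promoter region with a neighbour that is read in the other direction, and the neighbours were set beside them. For 12 of the 29 a protein-coding gene starts nearby (21 to 466 bases) upstream on the opposite strand. Of the 11 such neighbours that were tested, 2 fell and 0 rose in edgeR. Dctn5, a dynactin subunit gene whose start is 56 bases from that of Palb2, had a log2FC of -0.16 (adjusted p = 0.0187) beside the -0.13 of Palb2. Mcm4, a subunit of the replicative helicase whose start is 466 bases from that of Prkdc, had -0.08 (adjusted p = 0.0404) beside the 0.09 of Prkdc. Npat beside Atm and Nbr1 beside Brca1 had -0.09 and -0.05 and were not called.

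Other genes of the same pathways moved as little on balance. Out of 170 further repair and checkpoint genes, all but 1 were tested, and of these 169 genes 15 fell (8.88%) and 7 rose (4.14%), with a median log2FC of -0.02. Upper quartile scaling turned this balance, with 8 that fell and 11 that rose. For all tested genes both shares were 11.6%. In checkpoint signalling 2 of 23 fell: Etaa1, an activator of ATR, with -0.22 (edgeR adjusted p = 0.000405), and Wee1, the kinase that holds CDK1 inactive, with -0.17 (0.00551). In homologous recombination 7 of 42 fell and 2 rose, among them Abraxas1, a BRCA1 partner, with -0.25, Slx1b, a nuclease gene, with -0.41, and Swi5, a recombination accessory gene, with 0.15. For Slx1b the adjusted p was 0.0719 on leaving out control replicate 1 and 0.0671 in DESeq2, and for Swi5 it was 0.061 on leaving out control replicate 3. Slx1b shares 360 exonic bases with Bola2 on the other strand. Wee1 and Slx1b lie on chromosome 7, where 21.1% of tested genes fell. Rrm1, which fell, and Ercc1 and Bbc3, which rose, are on it too and are given below.

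Among further Fanconi genes, 3 of 21 fell and 1 rose. Faap100 and Fancl, both of the complex that attaches ubiquitin to the clamp, fell with -0.39 (edgeR adjusted p = 0.00231) and -0.37 (0.00184). Ercc1, a subunit of the nuclease that cuts at crosslinks, rose from 16.9 ± 0.913 to 24.7 ± 3.49 CPM (SD, n = 3 per group), log2FC 0.55 (adjusted p 0.000279). Ercc1 shares 106 exonic bases with Cd3eap, and Fancl shares 462 with Vrk2, both on the other strand.

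Of the other repair routes, end joining had 1 gene that rose among 15, Polq, the polymerase of microhomology-mediated joining, with 0.20 (edgeR adjusted p = 0.00174). Base excision had 1 that fell among 26, Ung, which removes uracil, with -0.15 (0.00437). Nucleotide excision had 1 that rose among 20, Ercc5, a nuclease that cuts beside bulky lesions, with 0.33 (0.00396). In bypass of lesions 2 of 14 rose and 1 fell: the polymerase genes Polk with 0.44 (0.000136) and Rev1 with 0.21 (0.000535) rose, and the ubiquitin-conjugating enzyme gene Ube2b fell with -0.14 (0.00175). Rev1 shares 1643 exonic bases with Eif5b on the other strand.

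With the fibroblast markers as a covariate, Etaa1 (-0.28, edgeR adjusted p = 0.0365) and Rev1 (0.31, 0.00561) were still called, and the other named genes of these further repair lists were not. Ercc1 then had 0.17 (0.663), Faap100 -0.12 (0.82), Slx1b -0.21 (0.744) and Ung -0.03 (0.911). Fancl (-0.38, 0.229), Wee1 (-0.22, 0.105), Abraxas1 (-0.15, 0.553), Swi5 (0.10, 0.532) and Ube2b (-0.09, 0.518) were not called either. The same held for Polq (0.16, 0.41), Ercc5 (0.31, 0.342) and Polk (0.30, 0.257). As above, this fit cannot tell the effect of group from that of marker content.

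Polk and Ercc5 also stand in a list of 31 p53 targets, of which 26 rose and 0 fell. In that list Bbc3, a trigger of cell death, had a log2FC of 1.22 (edgeR adjusted p = 3.14e-12), Sesn2 0.66 and Plk2 1.45. Cdkn1a, the p53 target that encodes the CDK inhibitor p21, had 1.27 (adjusted p = 0.00583). These rises stood beside log2FC values of -0.02 for Atm, -0.04 for Chek2 and -0.06 for Trp53, the gene of p53, none of which was called (95% interval of Trp53 -0.13 to 0.02). These are RNA values, and the protein level and activity of ATM, CHEK2 and p53 were not measured in these libraries. The direction of the p53 targets in these data was known when the list was written, so their count is a description. Of 38 DNA replication genes, 6 fell and 2 rose, with a median of -0.0059. Gmnn, a licensing inhibitor gene, had 0.19, and on leaving out control replicate 3 its adjusted p was 0.0766. Rfc5, a clamp loader gene, had -0.15 and Rrm1, a ribonucleotide reductase gene, -0.10.

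**Figure D5:**
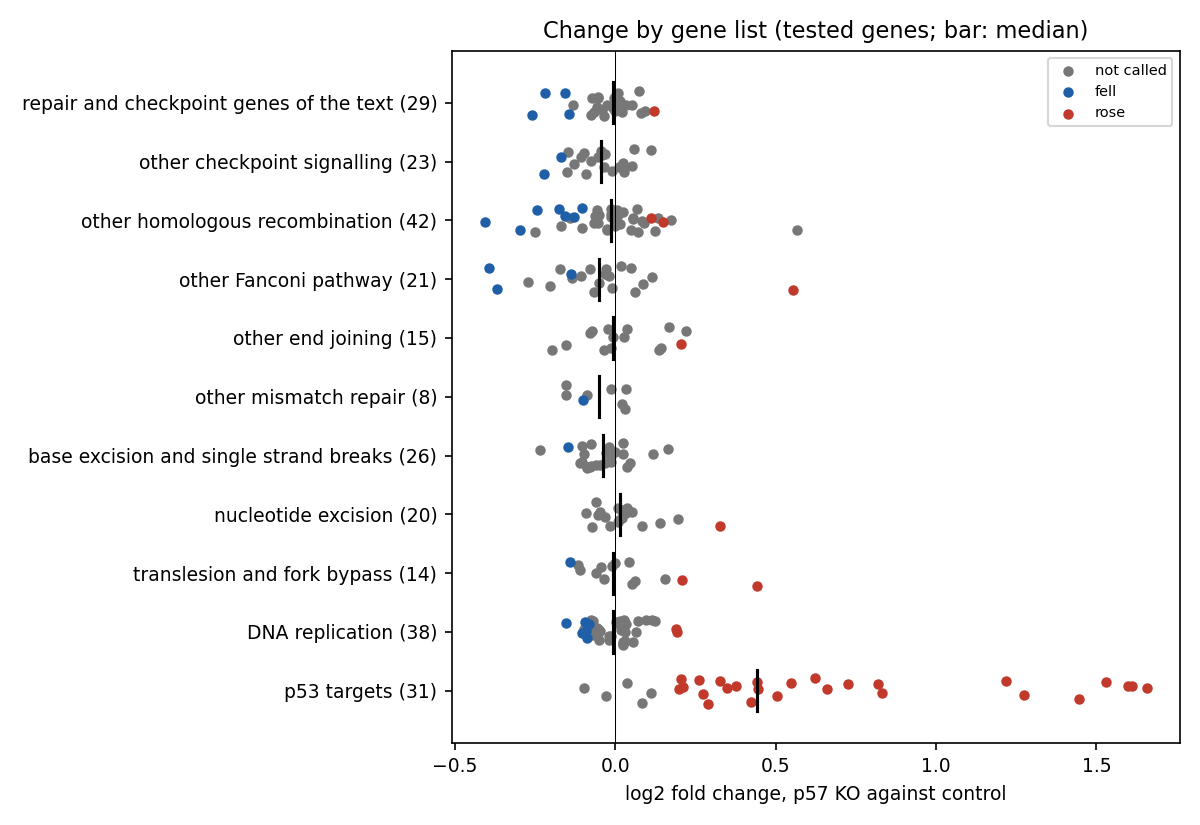
Log2FC, p57 KO against control, of each tested gene of the 29, of 8 further repair and checkpoint lists, of DNA replication genes and of p53 targets, with the number of genes in brackets and a bar at each median. The repair lists centre near 0, with medians from -0.05 to 0.02, while the p53 targets have a median of 0.44.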

How the data were processed

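The authors deposited raw counts per gene for 6 libraries of cultured mouse spermatogonia (3 control, 3 p57 KO), without normalization, from single reads of 76 bp per the series' design text. Per the submitters' processing notes, mm10 was the build, with HISAT2 2.2.1, HTSeq 2.0.2, cutadapt 3.4 and bcl2fastq 2.20 as tools. The sources used here do not give the annotation, strand setting or treatment of multi-mapped reads. Genes were filtered with filterByExpr (14814 of 32285 kept), scaled by TMM and tested with edgeR 4.0.16 (R 4.3.3, limma 3.58.1), quasi-likelihood F-test, robust, group as the only term, Benjamini-Hochberg adjustment over all tested genes. "Rose" and "fell" mean an adjusted p under 0.05. The SE is the fold change divided by the root of F, and intervals are 95%. The common biological coefficient of variation was 4.35%. The script was also run on simulated counts, drawn independently per gene and library from the fitted dispersions. They held no shift shared among genes, such as one in marker content, and the outcome is not given here. Positions, exon lengths and overlaps come from GENCODE M21 (all 29 genes matched), promoters from RefSeq, 1 window per gene. Named genes are all members, Cdkn1c, Cdkn1a, Trp53 and up to 3 genes of smallest p per list. Overlapping and neighbouring genes, partner pairs, the chromosome 7 values and the promoter motifs (with the second E2F set picked after the first had been run) were added after values were seen. Some results on withheld items are not reported here. Members and lists were chosen with earlier results of these data known. Alternatives were RLE, upper quartile and library-total scaling, DESeq2 1.42.0, limma-voom, no filter, at least 1 CPM in 3 libraries, a replicate block, each library left out, a fibroblast marker covariate and a test against a fold of 1.2. Replicates of a group were compared by chi-square over genes with at least 20 counts, and all pairs differed beyond sampling noise (1.69 to 5.97 per degree of freedom).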

Additional observations from a re-analysis of the deposited data

How the results depend on the processing

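Of 464 values of the 29 genes under 16 alternatives, 442 kept their side of the threshold, 18 lost and 4 gained a call, and no called value changed direction. The number of repair genes that fell was 4 and became 1 in DESeq2 (Fanci), 0 with the fibroblast covariate, 0 against a fold of 1.2, and 2 to 4 without single libraries. Calls over all genes moved too, from 3450 to 2448 in DESeq2, 395 with the covariate, 469 against a fold of 1.2 and 2358 to 4029 without single libraries. The number that rose was 1 and became 2 with no filter, 2 with the replicate block, 0 against a fold of 1.2, and 1 to 2 without single libraries. Of the further repair genes 15 fell and 7 rose. With upper quartile scaling 8 fell and 11 rose, with DESeq2 9 fell, with the fibroblast covariate 1 fell and 1 rose, against a fold of 1.2 0 fell and 1 rose, and without single libraries 8 to 17 fell and 5 to 8 rose. The median log2 fold change of the 29 was 0.014 with upper quartile scaling, 0.028 with the fibroblast covariate and -0.029 to -0.0075 without single libraries. Upper quartile scaling moved the median of all genes to 0.02. The choice of E2F letters moved the share of promoter windows with a match from 30.4% to 60.9%, and from 2.32% to 9.69% over all windows. Whether replicate numbers pair the samples was not settled. Same-numbered libraries had deviations from the group means that correlated by 0.258, 0.055 and -0.1 over 13795 genes, and 1 of 3 numbers matched itself best. With so few libraries these correlations cannot decide it. The replicate block added 1 call among the 29, Prkdc (log2 fold change 0.09, edgeR adjusted p = 0.0298). Over all tested genes it gave 3706 calls, against 3450 without the block. With 3 libraries per group a permutation test cannot give a p under 0.1.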
